A study of Homo sapiens with 16 samples.

Results

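The genes described are the 10 members of the activator protein-1 (AP-1) family JUN, JUNB, JUND, FOS, FOSB, FOSL1, FOSL2, ATF3, BATF and BATF3. They were chosen by name, each symbol being matched to the gene names of the RNA-seq count tables, and all 10 were found among the 60357 genes listed, with positions on GRCh38. RNA-seq had been carried out on Kasumi-1 and SKNO-1, established acute myeloid leukaemia cell lines with the t(8;21) translocation, which creates the fusion gene RUNX1/ETO. Each line had received lipid nanoparticles (LNPs) at 2 µg/ml for 24 h, loaded either with siRE-mod, a chemically modified siRNA against RUNX1/ETO, or with siMM-mod, the modified control siRNA, and was collected on day 3. There were 3 libraries for each line and siRNA, 12 in all, and the genotype is given as wild type in every one. Kasumi-1 was grown in serum-containing RPMI, SKNO-1 in the same medium with more serum and with GM-CSF, and no culture without nanoparticles was analysed here. The question of the comparison by label is which transcripts differ once RUNX1/ETO has been targeted. Nothing in the labels says that libraries of a group came from separate cultures, so p-values measure the spread between these libraries, which may be technical.

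AP-1 is a dimer of basic leucine zipper proteins. JUN proteins pair with one another or with FOS proteins, FOS proteins need a JUN partner to bind DNA, and BATF, BATF3 and ATF3 join as further partners. The dimers bind the sequence TGANTCA and pass growth factor, cytokine and stress signals, relayed by MAP kinases, on to the genome. FOS, FOSB and EGR1 are immediate-early genes, whose transcription rises quickly and briefly after a signal. AP-1 is also known as a partner of RUNX1 in myeloid cells and as a factor on which t(8;21) cells depend.

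The targeted gene did not follow the labels in every library. RUNX1T1, also called ETO, supplies most of the fusion transcript, and its level is given in CPM (reads of a gene in each 1000000 reads on genes) scaled by TMM, edgeR's correction for library composition. In Kasumi-1, RUNX1T1 was at 297, 92.9 and 161 CPM in libraries labelled siMM-mod 1, 2 and 3 and at 44.4, 159 and 37.3 CPM in those labelled siRE-mod 1, 2 and 3. In SKNO-1 the values were 329, 298 and 127 CPM under siMM-mod and 124, 165 and 40.4 CPM under siRE-mod. The stem and progenitor marker CD34 divided the libraries another way, at 117 to 421 CPM in 6 libraries and at 0.108 to 0.627 CPM in the other 6, with both line names on either side. IL5RA, a receptor subunit of eosinophils, reached at most 0.179 CPM in the CD34-expressing libraries and was at 36.3 to 68.0 CPM in the CD34-silent ones. Read by CD34 and then by RUNX1T1 (above or below 200 CPM with CD34, 100 CPM without, limits set with the values known), the libraries fell into 4 sets of 3. These are bulk libraries, in which fewer cells of a type and less RNA per cell cannot be told apart. CD34-expressing libraries with higher RUNX1T1 were SKNO-1 siMM-mod 1 and 2 and Kasumi-1 siMM-mod 1, and those with lower RUNX1T1 were SKNO-1 siMM-mod 3, SKNO-1 siRE-mod 1 and Kasumi-1 siMM-mod 2. CD34-silent libraries with higher RUNX1T1 were SKNO-1 siRE-mod 2, Kasumi-1 siMM-mod 3 and Kasumi-1 siRE-mod 2, and those with lower RUNX1T1 were Kasumi-1 siRE-mod 1 and 3 and SKNO-1 siRE-mod 3. RUNX1, the partner of ETO in the fusion, was, in these 4 sets in turn, at 383 to 411, 296 to 317, 249 to 274 and 141 to 156 CPM. Correlations were taken across 15863 genes with at least 600 reads over the 12 libraries, and genes are not independent replicates. Log2 CPM of Kasumi-1 siMM-mod 1 correlated at r = 0.9929 with SKNO-1 siMM-mod 1 but at r = 0.8333 with Kasumi-1 siMM-mod 3. Whether labels of siRNA or line were exchanged between libraries was not tested. Every fold change by label and every difference between lines given here holds for the labels as deposited. These readings order the values below and are not groups of the study, so no mean or test was made over them. The share of all genes that divide the libraries in the same way was not counted. Such a division therefore cannot be read as particular to any gene named below.

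Depth was 60559466 to 147990959 reads on genes per library, mitochondrial genes took 0.68 to 2.87% of them, and no pair of libraries agreed within sampling noise. The list of t(8;21) blast markers includes CD34 and RUNX1T1, given above. Of its other genes, KIT was at 97.0 to 999 CPM, CD33 at 38.1 to 76.4 CPM and ANPEP at 54.9 to 207 CPM. MPO was at 1783 to 22670 CPM, and POU4F1 only at 0.700 to 9.33 CPM. The lists of T cell, erythroid and stromal markers summed to at most 0.402, 0.535 and 0.130 CPM. Of the B cell markers MS4A1 was at 0 in all 12 libraries and CD79A at 0.909 to 2.91 CPM. Of the monocyte markers, which summed to 30.0 to 69.5 CPM, CD14 reached at most 0.0447 CPM while FCGR1A (8.67 to 23.8 CPM), LYZ (13.5 to 27.8 CPM) and CSF1R (0.617 to 24.9 CPM) were found in all 12. The summed level of 6 eosinophil and mast cell markers ranged from 2.23 to 380 CPM, and the part of these marker lists in the results was not tested. In 4 further libraries, from Kasumi-1 cells recovered from mice, all 10 AP-1 genes were listed at 0, with 0.02 to 0.0335% of reads assigned to genes, so no level is given for them.

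The promoter windows of FOS, FOSB, JUND and FOSL2 are shown because the libraries differed most sharply in these genes, each with a step of more than 2-fold between neighbours in the order of its 12 values. They are RefSeq sequences of GRCh38.p14, 300 bases each, written 5′ to 3′ on the gene's strand. Each runs from 250 bases before the gene's RefSeq start to 50 after. The FOSL2 window lies wholly inside the gene as listed in the count tables, which begins at chr2:28392448. Capitals mark every match, on either strand, to TGANTCA (the AP-1 site), TGANNTCA (its spaced form), TGACGT (the core of the cAMP response element, which can lie inside TGANNTCA), TGNGGT (the core of the RUNX site) or the CArG box bound by serum response factor.

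FOS promoter window, chr14:75278578-75278877, plus strand: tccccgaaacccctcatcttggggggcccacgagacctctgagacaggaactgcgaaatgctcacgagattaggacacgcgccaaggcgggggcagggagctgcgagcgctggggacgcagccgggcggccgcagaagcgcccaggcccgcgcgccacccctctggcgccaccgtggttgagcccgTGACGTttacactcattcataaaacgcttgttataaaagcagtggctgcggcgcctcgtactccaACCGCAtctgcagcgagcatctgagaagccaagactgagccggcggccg
FOSB promoter window, chr19:45467746-45468045, plus strand: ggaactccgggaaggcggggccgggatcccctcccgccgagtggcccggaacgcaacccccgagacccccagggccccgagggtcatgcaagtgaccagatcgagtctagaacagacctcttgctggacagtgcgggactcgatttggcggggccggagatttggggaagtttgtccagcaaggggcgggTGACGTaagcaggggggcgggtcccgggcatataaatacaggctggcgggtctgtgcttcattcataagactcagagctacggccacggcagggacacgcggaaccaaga
JUND promoter window, chr19:18281573-18281872, minus strand: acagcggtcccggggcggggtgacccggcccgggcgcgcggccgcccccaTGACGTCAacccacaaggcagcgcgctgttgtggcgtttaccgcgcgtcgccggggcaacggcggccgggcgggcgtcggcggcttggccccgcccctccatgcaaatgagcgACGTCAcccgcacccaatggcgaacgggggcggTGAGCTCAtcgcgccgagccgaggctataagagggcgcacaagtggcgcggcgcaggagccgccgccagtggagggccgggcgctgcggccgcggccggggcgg
FOSL2 promoter window, chr2:28392608-28392907, plus strand: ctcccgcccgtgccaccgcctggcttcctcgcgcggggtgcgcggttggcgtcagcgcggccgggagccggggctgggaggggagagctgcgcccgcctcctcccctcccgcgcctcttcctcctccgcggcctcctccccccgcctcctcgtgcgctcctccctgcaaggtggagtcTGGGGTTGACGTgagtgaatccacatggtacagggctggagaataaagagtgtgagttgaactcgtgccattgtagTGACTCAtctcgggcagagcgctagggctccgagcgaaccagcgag

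FOS, FOSB and FOSL2 each held 1 TGACGT, whose first base lay 64, 60 and 66 bases before the RefSeq start. JUND held TGACGT within a TGACGTCA 200 bases before its start and again 87 bases before it. Windows were given for 8 of the members, and 4 of these held TGACGT, against 7.98% of all 35116 windows. TGANTCA was in 1 member window, that of FOSL2, just after the RefSeq start, against 7.71% of all windows. TGANNTCA was found in JUN, JUND and ATF3 (11.5% of all windows), TGNGGT in 5 members (43.2%) and the CArG box in none (1.29%). Sequence more than 250 bases before the start was not searched, so the absence of a match holds for these windows only. A match is only a stretch of letters, and none was tested for binding.

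FOS (ENSG00000170345.10, chr14:75278826-75282230, plus strand) and FOSB (ENSG00000125740.14, chr19:45467995-45475179, plus strand), the immediate-early members of the FOS family, had the widest range of the 10 genes, 47.6-fold and 24.2-fold from the lowest to the highest library. In Kasumi-1, FOS was at 4.35, 5.07 and 156 CPM in libraries labelled siMM-mod 1, 2 and 3 and at 6.67, 136 and 5.60 CPM in those labelled siRE-mod 1, 2 and 3. In SKNO-1, FOS was at 3.96, 5.67 and 3.28 CPM under siMM-mod and at 6.41, 24.1 and 3.54 CPM under siRE-mod. The 3 high values belonged to the 3 CD34-silent libraries with higher RUNX1T1, whichever their label, and the other 9 libraries lay between 3.28 and 6.67 CPM. Within that set the SKNO-1 library stood 5.64-fold below the next one. In Kasumi-1, FOSB was at 3.45, 2.96 and 45.9 CPM under siMM-mod and at 4.70, 57.0 and 3.75 CPM under siRE-mod. In SKNO-1, FOSB was at 4.19, 3.73 and 4.11 CPM and 7.42, 16.5 and 2.36 CPM in turn. The same 3 libraries were the highest for FOSB, and the next, SKNO-1 siRE-mod 1, was at 7.42 CPM.

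FOS and FOSB were each other's nearest gene. When every gene was centred at its median over the 12 libraries, their log2 CPM values differed by 0.427 on average, less than for any other pairing of either gene with one of the 15863 genes compared. The next nearest to FOS were MYO5C, a class V myosin, at 0.711 and SLC6A8, the creatine transporter, at 0.718, and next to FOSB came C6orf132 at 0.558 and C1R, a complement protease, at 0.578. These values describe 12 libraries that share the 4 sets above and carry no test.

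The zinc finger gene EGR1, another immediate-early gene, was also highest in the CD34-silent libraries with higher RUNX1T1, at 124 to 291 CPM. It differed from FOS in the CD34-silent libraries with lower RUNX1T1, where it was at 25.6 to 37.3 CPM, above the 4.63 to 9.03 CPM of all CD34-expressing libraries. FOS in those same libraries was at 3.54 to 6.67 CPM, beside 3.28 to 6.41 CPM in the CD34-expressing ones.

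**Figure D1:**
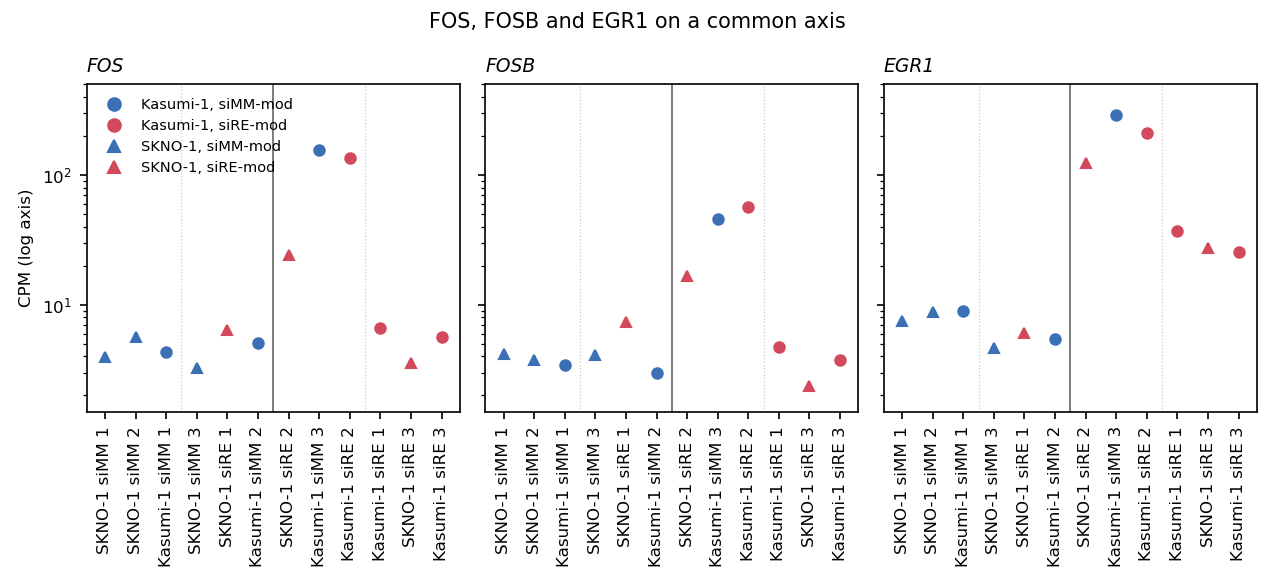
CPM (log axis) of FOS, FOSB and EGR1 in each of the 12 libraries, ordered by CD34 and then RUNX1T1, with blue for siMM-mod, red for siRE-mod, circles for Kasumi-1 and triangles for SKNO-1. The solid line divides CD34-expressing (left) from CD34-silent libraries and the dotted lines divide higher from lower RUNX1T1. The first 3 libraries right of the solid line, those with higher RUNX1T1, are the highest for all 3 genes, and only EGR1 stays above 25 CPM in the last 3.

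FOSL2 (ENSG00000075426.12, chr2:28392448-28417317, plus strand), whose protein FRA2 lacks the strong activation domain of FOS, ordered the libraries in another way. In Kasumi-1, FOSL2 was at 79.3, 35.3 and 24.0 CPM in libraries labelled siMM-mod 1, 2 and 3 and at 12.4, 22.6 and 12.9 CPM under siRE-mod. In SKNO-1, FOSL2 was at 82.8, 75.5 and 31.1 CPM under siMM-mod and at 30.6, 17.7 and 13.6 CPM under siRE-mod. The 4 sets of libraries did not overlap and ran in one order, from 75.5 to 82.8 CPM (CD34-expressing, higher RUNX1T1) through 30.6 to 35.3 CPM (CD34-expressing, lower RUNX1T1) and 17.7 to 24.0 CPM (CD34-silent, higher RUNX1T1) to 12.4 to 13.6 CPM (CD34-silent, lower RUNX1T1). Libraries of one set lay close together although they bore both line names, and the nearest neighbours of adjacent sets, 24.0 and 30.6 CPM, were closer in ratio than the ends of the CD34-silent set with higher RUNX1T1. Its nearest genes over the 12 libraries were DOK4, an adaptor of receptor tyrosine kinases, with a mean difference of 0.127 on the log2 scale, and GYPC, glycophorin C, with 0.16.

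FOSL1 (ENSG00000175592.8, chr11:65892049-65900573, minus strand), which encodes FRA1, was a low-level member. In Kasumi-1, FOSL1 was at 7.01, 4.98 and 2.90 CPM under siMM-mod and at 9.24, 2.88 and 8.27 CPM under siRE-mod. In SKNO-1, FOSL1 was at 6.57, 6.48 and 3.79 CPM and 4.41, 2.35 and 9.40 CPM in turn. Among CD34-silent libraries the 3 with lower RUNX1T1 were the highest of all 12, at 8.27 to 9.40 CPM, and the 3 with higher RUNX1T1 the lowest of all, at 2.35 to 2.90 CPM. Among CD34-expressing libraries the order was the opposite, 6.48 to 7.01 CPM with higher and 3.79 to 4.98 CPM with lower RUNX1T1. SH3BP5, at 0.185, and ECE1, an endothelin-processing protease, at 0.204, were its nearest genes.

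JUND (ENSG00000130522.5, chr19:18279760-18281622, minus strand), the JUN family member usually made in resting cells, was set apart in 3 libraries. In Kasumi-1, JUND was at 23.0, 27.6 and 26.8 CPM under siMM-mod and at 68.4, 23.9 and 76.6 CPM under siRE-mod. In SKNO-1, JUND was at 21.3, 23.3 and 16.6 CPM under siMM-mod and at 19.3, 13.1 and 59.5 CPM under siRE-mod. The 3 CD34-silent libraries with lower RUNX1T1 were at 59.5 to 76.6 CPM, and the other 9 were at 13.1 to 27.6 CPM. Of the libraries labelled siRE-mod, Kasumi-1 2 and SKNO-1 1 and 2 were thus among the low ones. NFKBIB, an inhibitor of NF-kappa-B, was the nearest gene at a mean log2 difference of 0.136, and ATG4D, an autophagy protease, followed at 0.205.

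JUNB (ENSG00000171223.6, chr19:12791486-12793315, plus strand), an immediate-early member that often restrains JUN, divided the libraries as CD34 did. In Kasumi-1, JUNB was at 20.1, 21.7 and 58.4 CPM under siMM-mod and at 37.4, 42.8 and 41.5 CPM under siRE-mod. In SKNO-1, JUNB was at 15.8, 17.4 and 10.9 CPM and 11.5, 23.8 and 34.1 CPM in turn. All CD34-silent libraries, at 23.8 to 58.4 CPM, lay above all CD34-expressing ones, at 10.9 to 21.7 CPM, although SKNO-1 siRE-mod 2 and Kasumi-1 siMM-mod 2 came close to each other. Of the exonic bases of JUNB, 259 (14.2%) are shared with HOOK2 on the opposite strand, and whether reads were counted by strand is not given in the sources used here, so reads of the pair cannot be told apart there. ALG3, a mannosyltransferase, at 0.13 and SH2B2, an adaptor protein, at 0.145 were nearest to JUNB, and BATF was closer to it than any other member, at 0.211.

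JUN (ENSG00000177606.6, chr1:58780788-58784327, minus strand), which gave its name to the family, showed no sharp step between libraries. In Kasumi-1, JUN was at 8.26, 5.86 and 13.0 CPM under siMM-mod and at 15.1, 10.7 and 12.7 CPM under siRE-mod. In SKNO-1, JUN was at 11.6, 9.18 and 4.99 CPM and 6.59, 3.68 and 8.29 CPM in turn. Its range was 4.10-fold and no step between neighbours exceeded 1.35-fold. The CD34-expressing libraries with lower RUNX1T1 were low, at 4.99 to 6.59 CPM, but the lowest value of all, 3.68 CPM, belonged to SKNO-1 siRE-mod 2, a CD34-silent library. The zinc finger genes ZNF444 and ZNF579 were the nearest, at 0.269 and 0.274.

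BATF (ENSG00000156127.6, chr14:75522425-75547015, plus strand), a partner of JUN proteins known from lymphocytes, divided the libraries as JUNB did. In Kasumi-1, BATF was at 3.65, 3.61 and 7.04 CPM under siMM-mod and at 5.55, 5.23 and 6.29 CPM under siRE-mod. In SKNO-1, BATF was at 2.84, 2.63 and 1.66 CPM under siMM-mod and at 1.70, 4.32 and 6.76 CPM under siRE-mod. CD34-silent libraries, at 4.32 to 7.04 CPM, lay above CD34-expressing ones, at 1.66 to 3.65 CPM, without overlap. How many of all genes did so was not counted. BATF lies 240 kb from FOS on chromosome 14, and its 6 highest libraries were the CD34-silent ones, whereas only 3 of those were high for FOS. The lipid synthesis genes AGPAT2, at 0.0982, and CYP51A1, at 0.122, were nearest to it.

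ATF3 (ENSG00000162772.17, chr1:212565334-212620777, plus strand), a stress-induced member, was scarce. In Kasumi-1, ATF3 was at 2.42, 0.561 and 1.66 CPM under siMM-mod and at 1.70, 0.692 and 1.74 CPM under siRE-mod. In SKNO-1, ATF3 was at 2.29, 2.69 and 0.423 CPM and 0.641, 0.700 and 1.36 CPM in turn. Within CD34-expressing libraries the 3 with higher RUNX1T1 were at 2.29 to 2.69 CPM and the 3 with lower RUNX1T1 at 0.423 to 0.641 CPM. The lowest value rests on 27 reads, a 95% exact Poisson interval of 0.279 to 0.616 CPM that covers counting error only. Its nearest genes were ETV5, an ETS factor induced by MAP kinase signals, at 0.372 and the pseudogene SNRPGP2 at 0.387, which could share reads with its parent gene.

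BATF3 (ENSG00000123685.9, chr1:212686417-212699840, minus strand), the partner of JUN needed for cross-presenting dendritic cells, had 371 reads in all and was not tested. In Kasumi-1, BATF3 was at 0.475, 0.332 and 0.477 CPM under siMM-mod and at 0.223, 0.246 and 0.240 CPM under siRE-mod. In SKNO-1, BATF3 was at 0.514, 0.737 and 0.329 CPM and 0.179, 0.113 and 0.346 CPM in turn. The Kasumi-1 groups did not overlap and the SKNO-1 groups did. Of all tested genes, which leave BATF3 out, 21.6% did not overlap in Kasumi-1 and 12.1% in SKNO-1. The counting intervals are wide at this depth, 0.0565 to 0.202 CPM around the lowest value (11 reads), and that of Kasumi-1 siMM-mod 2 (0.217 to 0.486 CPM) covers all 3 Kasumi-1 siRE-mod values.

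**Figure D2:**
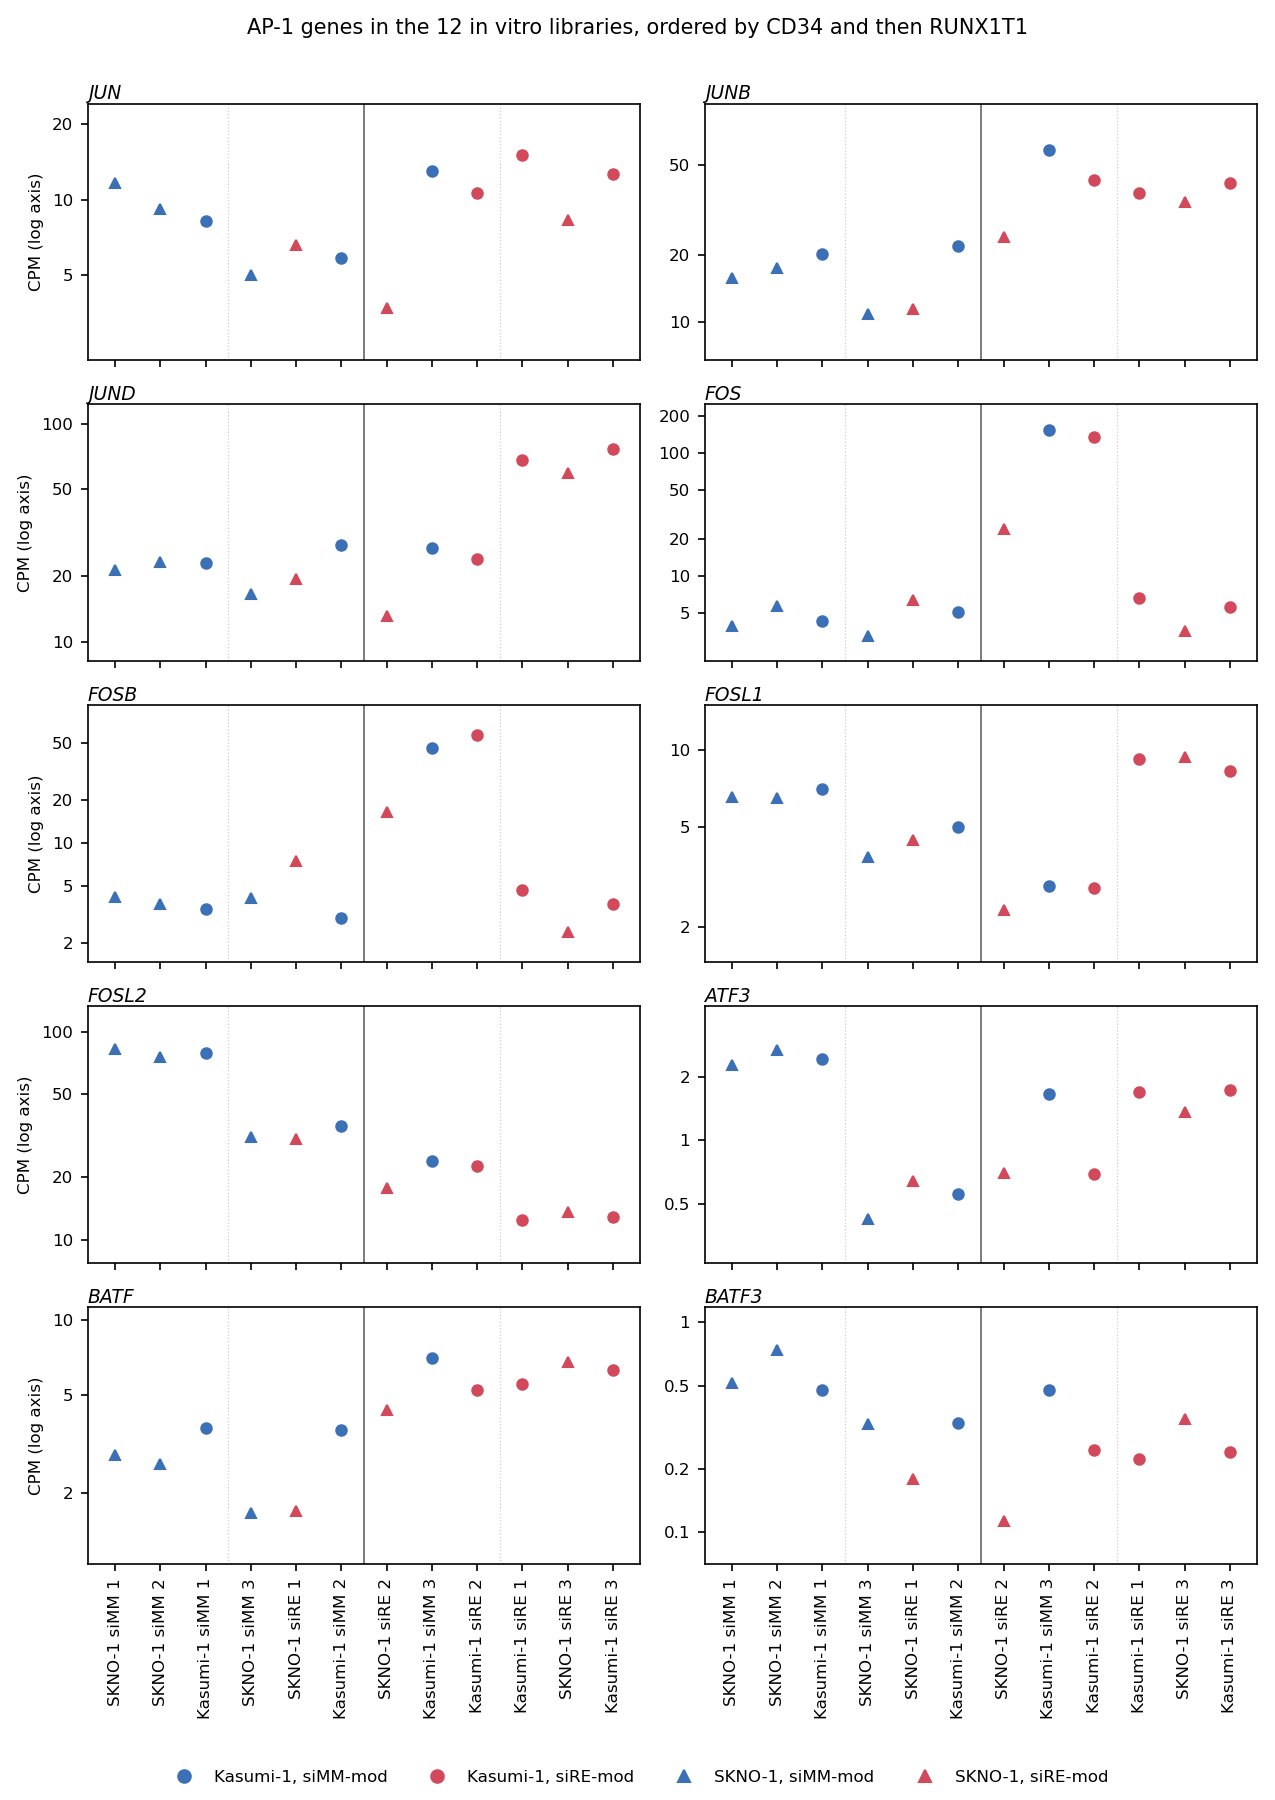
CPM (log axes that differ between panels) of each AP-1 gene in each of the 12 libraries, ordered by CD34 and then RUNX1T1, with blue for siMM-mod, red for siRE-mod, circles for Kasumi-1 and triangles for SKNO-1. The solid line divides CD34-expressing (left) from CD34-silent libraries and dotted lines divide higher from lower RUNX1T1. FOS and FOSB are high in 3 libraries, JUND in the last 3, and FOSL2 steps down from left to right.

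Per length, the make-up of the family differed between libraries. The deposited FPKM values, which divide by exon length and are not scaled by TMM, allow genes to be compared. Summed over the 10 genes they ran from 27.7 FPKM in SKNO-1 siMM-mod 3 to 112 FPKM in Kasumi-1 siMM-mod 3. JUN, JUNB and JUND together made up 38.3 to 81.2% of that sum, the 4 FOS genes 10.4 to 56.3% and ATF3, BATF and BATF3 5.47 to 11.6%. FOS genes held more than JUN genes in 2 libraries, Kasumi-1 siMM-mod 3 (51.8%) and Kasumi-1 siRE-mod 2 (56.3%), and least in Kasumi-1 siRE-mod 3 (10.4%). The leading gene was FOS in those 2 libraries, at 45.8 and 46.6 FPKM, FOSL2 in SKNO-1 siMM-mod 1 at 10.8 FPKM, just ahead of JUND at 10.7 FPKM, and JUNB in SKNO-1 siRE-mod 2 at 13.1 FPKM. JUND led in the other 8, by its widest margin in the 3 CD34-silent libraries with lower RUNX1T1, at 33.1 to 45.5 FPKM. The ratio of FOS to FOSL2 in FPKM ran from 0.107 in SKNO-1 siMM-mod 1 to 14.6 in Kasumi-1 siMM-mod 3, and was at most 0.472 in the CD34-expressing libraries. It was also under 1 in the CD34-silent libraries SKNO-1 siRE-mod 3 (0.588) and Kasumi-1 siRE-mod 3 (0.979).

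**Figure D3:**
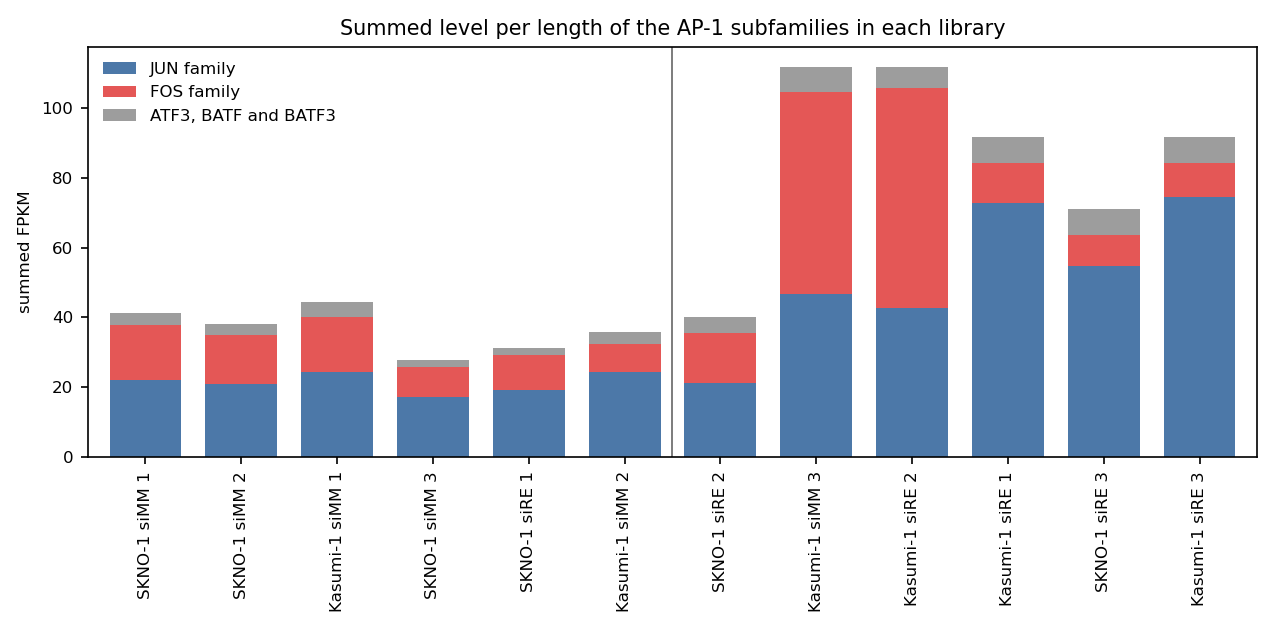
Summed FPKM (level per exon length) of the JUN family (JUN, JUNB, JUND), the FOS family (FOS, FOSB, FOSL1, FOSL2) and ATF3, BATF and BATF3, stacked for each of the 12 libraries in the order of CD34 and then RUNX1T1, with the solid line between CD34-expressing (left) and CD34-silent libraries. The FOS part is largest in Kasumi-1 siMM-mod 3 (58.0 FPKM) and Kasumi-1 siRE-mod 2 (62.9 FPKM), and the JUN part in the 3 last libraries (54.8 to 74.6 FPKM).

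Compared by label, no AP-1 gene passed the test in either line. With edgeR's quasi-likelihood test and Benjamini-Hochberg adjustment, 0 of 9 tested members had an adjusted p under 0.05 in Kasumi-1, as did 0 of all 13608 genes tested (0.0%), and 0 of 9 in SKNO-1, as did 0 of 13628 (0.0%). At an unadjusted p under 0.05, 2 members (FOSL2 and JUND) were counted in Kasumi-1, as were 17.9% of all genes, and 1 (FOSL2) in SKNO-1, as were 10.7%. DESeq2 gave no adjusted p to FOS and FOSB in Kasumi-1, and by it 1 of the other 7 members passed there and 1 of 9 in SKNO-1, against 8.51% and 2.73% of all genes tested (those without an adjusted p included). In both lines it was FOSL2.

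FOSL2 averaged 46.2 ± 29.2 CPM under siMM-mod and 15.9 ± 5.74 CPM under siRE-mod in Kasumi-1 (SD, n = 3 each). Its log2 fold change of siRE-mod over siMM-mod was -1.54 (SE 0.51), with an adjusted p of 0.253 by edgeR and 0.0345 by DESeq2. SKNO-1 averaged 63.1 ± 28.0 CPM and 20.6 ± 8.87 CPM in turn, a log2 fold change of -1.61 (SE 0.46), with an adjusted p of 0.466 by edgeR and 0.0283 by DESeq2. The labelled groups did not overlap in either line, as for 21.6% of all tested genes in Kasumi-1 and 12.1% in SKNO-1, although in Kasumi-1 they came within 24.0 and 22.6 CPM. Without TMM scaling these 2 libraries changed places, at 22.4 CPM under siMM-mod and 24.6 CPM under siRE-mod, and the groups overlapped, while 35.3% of all tested genes then did not (11.1% in SKNO-1). Without Kasumi-1 siMM-mod 1 the log2 fold change in Kasumi-1 was -0.89. The difference between the lines was -0.08 (SE 0.72, adjusted p of 1.0 by edgeR). Because the siRE-mod label and the CD34-silent reading coincide in most libraries, the siRNA and the CD34 division cannot be told apart in these fold changes.

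JUND had a log2 fold change of 1.13 (SE 0.43, adjusted p 0.26 by edgeR) in Kasumi-1, from 25.8 ± 2.5 to 56.3 ± 28.3 CPM, and of 0.57 (SE 0.54, adjusted p 0.716 by edgeR) in SKNO-1, from 20.4 ± 3.44 to 30.6 ± 25.2 CPM (SD, n = 3). Its siRE-mod groups held 2 high libraries and 1 ordinary one in Kasumi-1 and 1 high and 2 ordinary ones in SKNO-1. FOS had a log2 fold change of -0.13 (SE 1.81) for Kasumi-1 and of 1.41 (SE 0.72) for SKNO-1, with adjusted p of 0.971 and 0.501 by edgeR. Both Kasumi-1 groups contained 1 library above 130 CPM and 2 under 7 CPM, so the groups spread over nearly the same range. Without SKNO-1 siRE-mod 2 the values for SKNO-1 were 0.24 for FOS and 0.32 for FOSB. FOSB gave 0.35 (SE 1.49) and 1.14 (SE 0.66), with adjusted p of 0.907 and 0.54 by edgeR.

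The remaining 5 tested members had log2 fold changes between -0.17 and 0.51 in Kasumi-1 and between -1.0 and 0.83 in SKNO-1, with adjusted p by edgeR from 0.414 to 0.891 and from 0.564 to 0.981. JUN was at 0.51 (SE 0.33) for Kasumi-1 and -0.48 (SE 0.44) for SKNO-1, and the difference between lines, -0.98 (SE 0.57), had the smallest unadjusted p of the 9 members (0.116, adjusted p 1.0 by edgeR). JUNB was at 0.29 (SE 0.42, or 0.04 to 0.96 with 1 library left out) and 0.65 (SE 0.41), and BATF at 0.26 (SE 0.33) and 0.83 (SE 0.56). For the difference between lines, 0 of 9 members and 0 of 15863 genes (0.0%) passed by edgeR, and 0 of 9 members had an unadjusted p under 0.05, against 0.668% of all genes. By DESeq2, which gave FOS no adjusted p, 0 of the other 8 members passed for that difference, against 0.744% of all genes.

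In each line 1 library decided how many genes passed by edgeR, and the plot of fold changes shows what each library left out did to the members.

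**Figure D4:**
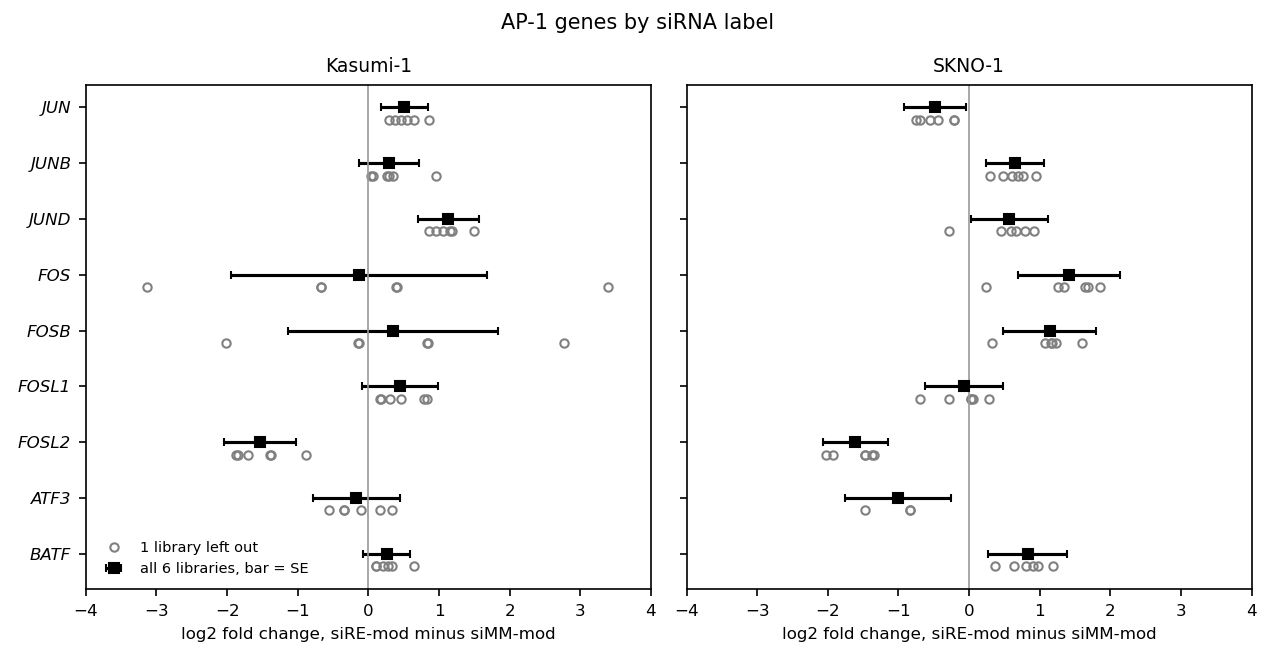
Log2 fold change of siRE-mod over siMM-mod (horizontal axis) of the 9 tested AP-1 genes in Kasumi-1 and SKNO-1. Squares with bars are values from all 6 libraries of a line with their SE, and open circles are the same value with 1 library left out. FOS in Kasumi-1 runs from -3.14 to 3.39 when 1 library is left out, and FOSL2 stays below 0 in every such fit in both lines.

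In Kasumi-1 this was siMM-mod 3, a CD34-silent library. Without it, 2 CD34-expressing libraries were set against 3 CD34-silent ones, and 32.2% of 13200 genes had an adjusted p under 0.05 by edgeR. Then 3 members passed, JUN at 0.86 (SE 0.25, adjusted p 0.043), JUNB at 0.96 (SE 0.13, adjusted p 0.00429) and FOSL2 at -1.84 (SE 0.42, adjusted p 0.0235), while JUND was at 1.16 (adjusted p 0.14), BATF at 0.65 (adjusted p 0.0566) and FOS at 3.39 (SE 1.66, adjusted p 0.178). In SKNO-1 it was siRE-mod 1, a CD34-expressing library. Without it, SKNO-1 compared 3 CD34-expressing with 2 CD34-silent libraries, 19.3% of 13119 genes passed by edgeR, and FOSL2 was the only member to do so, at -2.03 (SE 0.45, adjusted p 0.0267). In both of these fits the siRNA and the CD34 division cannot be told apart.

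Genes around AP-1 in its pathway gave no call by label either, with 0 passing in either direction in any list by edgeR. Where DESeq2, which called 8.51% of all genes in Kasumi-1 and 2.73% in SKNO-1, called list genes, they are named with their values, chosen after these were seen. Their values are log2 fold changes by label, in which the siRNA and the CD34 division cannot be told apart. Among other immediate-early genes, 0 of 12 tested passed in each line, 3 and 4 had an unadjusted p under 0.05, beside 17.9% and 10.7% of all genes, and the median log2 fold changes were 0.13 (Kasumi-1) and 0.68 (SKNO-1), beside 0.02 and 0.03 over all genes. DESeq2 called NR4A3, a nuclear receptor, in Kasumi-1 (3.21, SE 1.01, adjusted p 0.0268) and EGR1 in SKNO-1 (2.9, SE 0.82, adjusted p 0.0209). KLF6, a zinc finger factor, was at 36.7 to 46.9 CPM in CD34-expressing and 73.9 to 106 CPM in CD34-silent libraries, a division like that of JUNB.

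Of known AP-1 targets, 0 of 13 passed by edgeR in each line, 3 and 7 had an unadjusted p under 0.05, beside 17.9% and 10.7% of all genes, and the medians were 0.87 and 1.76. In Kasumi-1, DESeq2 called CCND1, a cyclin (-3.91, adjusted p 0.0146), HMOX1, haem oxygenase (2.86, adjusted p 0.0362), and TNF (2.12, adjusted p 0.0479). In SKNO-1 it called the cytokine IL1B (2.85, adjusted p 0.0212) and VIM, vimentin (9.52, SE 1.83, adjusted p 7.35e-05). TIMP1, an inhibitor of metalloproteinases, ran from 33.8 to 54.6 CPM in CD34-expressing and from 101 to 153 CPM in CD34-silent libraries. The adhesion receptor CD44 was highest in CD34-expressing libraries with higher RUNX1T1, at 672 to 739 CPM, and at 381 to 571 CPM elsewhere.

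Of SRF, the ternary complex factors and the MRTF genes listed with them, 0 of 6 passed by edgeR in each line. SRF and the ternary complex factors bind the FOS promoter. By edgeR 2 and 2 of the list had an unadjusted p under 0.05, beside 17.9% and 10.7% of all genes. The medians were 0.06 in Kasumi-1 and 0.08 in SKNO-1. The ternary complex factor ELK4 was at 51.1 to 62.8 CPM in CD34-expressing and 91.4 to 118 CPM in CD34-silent libraries, while MRTFA stayed at 69.4 to 97.4 CPM. ELK3 was called by DESeq2 in Kasumi-1 (-1.67, adjusted p 0.0392). Other leucine zipper partners gave 0 of 17 and 0 of 16 by edgeR, 3 and 1 with an unadjusted p under 0.05, beside 17.9% and 10.7% of all genes, and medians of 0.06 and 0.11. DESeq2 called JDP2, which pairs with JUN and represses (-1.46, SE 0.24, adjusted p 1.52e-06), and NFE2L2, the oxidative stress factor (1.02, adjusted p 0.0366), in Kasumi-1, and ATF5 in SKNO-1 (2.54, adjusted p 0.0253). ATF4, the stress-response factor, was at 164 to 303 CPM and ATF6 at 98.3 to 128 CPM in the 12 libraries. Whether these genes had a part in the AP-1 values was not tested.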

How the data were processed

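RNA from 12 in vitro libraries was measured by paired-end RNA-seq. Reads were trimmed (Trim Galore 0.6.5), aligned to GRCh38 (STAR 2.7.10a) and assigned to genes (Subread 1.6.5 in the study's methods, Rsubread 1.32.4 in the file headers). The authors deposited raw counts, CPM (scaled to reads on genes) and FPKM per gene. The counts, not the deposited CPM, were used for levels and tests, and FPKM to compare genes. TMM factors were taken over the 12 libraries for levels and over the libraries of each fit for edgeR's tests. Counts of 4 in vivo libraries, deposited by the authors, gave no level. Each line was tested with edgeR 4.0.16 (R 4.3.3; glmQLFit, robust) on genes with at least 600 reads in total per fit, siRE-mod against siMM-mod, Benjamini-Hochberg threshold 0.05, and the difference between lines as an interaction over all 12. Log2 CPM used a prior count of 2. The SE of an edgeR value was worked out as its absolute log2 fold change divided by the square root of the test's F. Alternatives were DESeq2 1.42.0 (independent filtering off), other filters and scalings, a replicate block and leaving out each library. With 3 libraries a group, an exact permutation test could not go below p = 0.1 and was not used. The fits were tested on simulated counts. The members and gene lists were chosen with earlier results of these data known. Named genes were the members, the 4 genes that read the libraries, the 2 highest genes of each list and the 2 nearest to each member of over 4-fold range. Of these, 1 list gene is not reported here. Promoter windows came from RefSeq.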

Additional observations from a re-analysis of the deposited data

How the results depend on the processing

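DESeq2 passed 1158 genes for Kasumi-1, 372 for SKNO-1 and 118 for the difference between lines, against 0 in each by edgeR, and 1 member passed in each line. FOS and FOSB in Kasumi-1 got no adjusted p from DESeq2. The log2 fold change of FOS in Kasumi-1 was 0.47 with the replicate number as a block, against -0.13 without. The block left 0 calls everywhere. Deviations of libraries with the same number correlated at -0.0185, -0.272 and -0.0132 in Kasumi-1 and at -0.133, -0.0213 and -0.246 in SKNO-1. In Kasumi-1 siMM-mod and SKNO-1 siRE-mod these deviations include the CD34 division, so they cannot decide whether the numbers pair the libraries. With 1 library left out, 0 to 4250 genes passed for Kasumi-1, 0 to 2535 for SKNO-1 and 0 for the difference, with 0 to 3, 0 to 1 and 0 members. In Kasumi-1, log2 fold changes ran from -3.14 to 3.39 for FOS, from -2.01 to 2.77 for FOSB and from -0.56 to 0.33 for ATF3. In SKNO-1 they ran from -0.29 to 0.92 for JUND and from -0.69 to 0.28 for FOSL1. The difference between lines ran from -0.34 to 0.69 for JUNB, from -2.02 to 4.57 for FOS, from -1.67 to 3.18 for FOSB and from -0.72 to 0.26 for FOSL2. ATF3 in SKNO-1 reached the filter in 3 of these fits. Without TMM scaling, a setting added after the values were seen for the overlap of groups, FOSL2 in Kasumi-1 overlapped and JUND did not (35.3% of genes did not). The highest JUN value without TMM was 17.9 CPM, and the cause of these changes was not tested. Over the other settings, 200 of 209 values kept their direction and side of the threshold or their size, and with 1 library left out 228 of 261 did. Depth limits BATF3 and ATF3 most.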

Other observations

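Kinases and proteins that control AP-1 after transcription were compared as well. The list of MAP kinases and their upstream kinases also held RPS6KA1, RPS6KA3 and RPS6KA5. Of this list, 0 of 17 passed edgeR's test in Kasumi-1 and 0 of 18 in SKNO-1. By edgeR 1 and 1 had an unadjusted p under 0.05 (17.9% and 10.7% of all genes did). DESeq2 called none, and the median log2 fold change was 0.05 in both lines. MAP3K1, which feeds the JNK cascade, was at 203 to 217 CPM in the CD34-silent libraries with higher RUNX1T1, above the 108 to 177 CPM of all other libraries. Of the genes for degradation and feedback, 0 of 9 passed by edgeR in each line (2 and 3 at an unadjusted p under 0.05, beside 17.9% and 10.7% of all genes), with medians of -0.04 and 0.06. DESeq2 called the MAP kinase phosphatases DUSP4 in Kasumi-1 (-2.93, adjusted p 0.0162) and SKNO-1 (-2.58, adjusted p 0.0386) and DUSP10 in Kasumi-1 (2.08, adjusted p 0.0161), and the ubiquitin ligases ITCH and COP1, which target JUN, stayed at 123 to 152 and 81.0 to 105 CPM. Heat-shock genes gave 0 of 9 by edgeR in each line (4 and 2 at an unadjusted p under 0.05, beside 17.9% and 10.7% of all genes), with medians of -0.05 and -0.21. By DESeq2, HSPB1 had log2 fold changes of -1.7 and -1.35 (adjusted p 0.000195 and 0.035) and HSPD1 of -1.11 and -1.1 (adjusted p 0.0414 and 0.0435) in Kasumi-1 and SKNO-1. In these calls by label, too, the siRNA and the CD34 division cannot be told apart. The chaperone HSPA8 was at 1898 to 2311 CPM in the CD34-expressing libraries with higher RUNX1T1 and at 1260 to 1958 CPM in the rest, and HSP90AA1 was at 987 to 1781 CPM in all 12.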
